A study of Mus musculus with 9 samples.

Results

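The 8 long noncoding RNAs described here are Gas5, Snhg1, Snhg6, Snhg8, Snhg12, Neat1, Malat1 and H19, which were picked by symbol from the 53465 genes of the deposited count table. Gas5 and the 4 Snhg genes host small nucleolar RNAs (snoRNAs) within them, Neat1 and Malat1 act in the nucleus, and H19 is an imprinted RNA. The choice went by name and not by a threshold on measured values, though earlier results of these data were known when it was made, and each symbol had 1 row. The libraries were made from bone marrow-derived macrophages (BMDMs) of male wild-type mice, C57BL/6 in the labels and of C57bl6/J background in the methods of the study, grown for 5 to 10 days with 10% fetal bovine serum and 50 ng/ml of CSF1, the growth factor that keeps macrophages alive and dividing. The age of the mice is not given in the sources used here. In UNX the BMDMs were left untreated. In CO-CM they received medium conditioned by pulmonary artery adventitial fibroblasts of control neonatal calves, and in PH-CM medium from the same kind of fibroblast taken from calves made pulmonary hypertensive by hypoxia. Each conditioned medium was a pool from several fibroblast populations, so the libraries of a group repeat the macrophage culture and not the fibroblast donor. By the methods of the study, fibroblasts grew with 10% bovine calf serum, and 10% fetal bovine serum was added to their medium before use. CSF1 is named there for the growth medium of the macrophages and not for the conditioned medium. Serum and CSF1 may thus also differ from UNX, and their part cannot be told apart from that of fibroblast products. The labels give the time in medium as 16 hours in 1 field and as 24 hours in another, and the methods of the study give a time between them. Each group had 3 RNA-Seq libraries, and the 9 libraries held from 62017933 to 84314201 counted reads. Nothing says that the 3 repeats came from separate mice, so the p-values measure the spread between these cultures. All 9 macrophage markers examined, Csf1r and Adgre1 among them, passed the filter on low counts. Their summed RPKM was 8110 to 8656 in UNX, 12672 to 13112 in CO-CM and 14544 to 15385 in PH-CM. In PH-CM against UNX 8 of them were called higher, and in CO-CM against UNX 5 were called higher and 1 lower. Of all genes tested, 31.3% were called higher in PH-CM, and 28.0% higher and 28.9% lower in CO-CM. Summed RPKM of 9 fibroblast markers, among them Col1a1 and Col1a2, was 25.0 to 31.7 in UNX, 32.2 to 38.2 in CO-CM and 30.9 to 40.5 in PH-CM, and its part in the results was not tested. Of the 7 that passed the filter, 4 were called higher in PH-CM and 3 in CO-CM against UNX. Among all genes tested, 31.3% and 28.0% were called higher. Lum and Thy1 had at most 26 reads in a group and did not pass. Of 9 neutrophil markers only S100a8 passed the filter, and it was called higher in both media (log2 fold change 1.37 in PH-CM and 1.39 in CO-CM against UNX). Summed RPKM of the 9 was 2.44 to 3.72 in UNX, 4.30 to 5.72 in CO-CM and 3.85 to 5.43 in PH-CM, with Ly6g and Mpo at 0 in both media, and its part in the results was not tested.

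Small nucleolar RNAs guide chemical modification of ribosomal RNA as ribosomes are assembled. In mammals most of them are cut from the introns of a host gene, so the spliced host RNA is what remains after the snoRNA has been released. Gas5, growth arrest-specific 5, was found by its accumulation in cells that stop growing: its spliced RNA begins, like the mRNAs of ribosomal proteins, with a 5′ terminal oligopyrimidine tract (5′ TOP) that links translation to mTOR activity, and while it is translated it is destroyed by nonsense-mediated decay. Snhg1 is the host of the U22 snoRNA among others, and Snhg6, Snhg8 and Snhg12 carry fewer snoRNAs. Neat1 is the RNA scaffold of paraspeckles, nuclear bodies that hold proteins and edited RNAs. Malat1 is among the most abundant nuclear RNAs, lies in nuclear speckles where splicing factors are stored, and ends in a triple helix instead of an added poly(A) tail. H19 is expressed from the maternal chromosome, restrains fetal growth and is the precursor of miR-675.

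The starts of the RNAs are shown because the 5′ TOP is a feature of some hosts that the choice of genes did not use. RefSeq windows around annotated starts (GRCm38.p6, the genome build of the files) matched 5 of the 8 genes; Snhg6, Neat1 and H19 are named only. Each line gives 45 bases before the start and 30 from it, on the strand of the gene. Capitals mark TATA where it lies 40 to 21 bases before the start, and a tract of C followed by at least 4 pyrimidines that begins within 5 bases of the start. Both patterns were chosen after the sequences had been seen and were searched on the strand of the gene. For Gas5 the second annotated start, chr1:161035121-161035195 on the plus strand, is printed. The Snhg1 window is chr19:8723442-8723516 on the plus strand, that of Snhg8 is chr3:123508307-123508381 on the minus strand, that of Snhg12 is chr4:132308633-132308707 on the plus strand, and that of Malat1 is chr19:5802643-5802717 on the minus strand.
Gas5: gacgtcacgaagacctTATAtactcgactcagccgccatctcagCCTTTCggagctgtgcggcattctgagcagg
Snhg1: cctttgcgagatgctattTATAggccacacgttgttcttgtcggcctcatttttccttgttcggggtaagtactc
Snhg8: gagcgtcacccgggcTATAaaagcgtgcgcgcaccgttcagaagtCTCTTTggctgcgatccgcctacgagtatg
Snhg12: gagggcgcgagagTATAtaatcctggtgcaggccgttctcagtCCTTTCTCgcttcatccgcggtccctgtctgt
Malat1: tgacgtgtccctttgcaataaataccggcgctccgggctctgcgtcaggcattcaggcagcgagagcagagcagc
Gas5, Snhg8 and Snhg12 had both the tract and TATA in these windows, Snhg1 had TATA with no tract that met the definition, and Malat1 had neither. The other annotated start of Gas5 had neither pattern. Of 32851 windows of the same length around annotated starts in the reference, 18.3% held the tract, 5.34% held TATA and 1.03% held both. Most other snoRNA host genes with a window lacked the pair. Snhg7 had both, and Snhg3, Snhg9, Snhg10 and Snhg18 had the tract alone. Snhg5, Snhg11, Snhg14, Snhg15, Snhg16, Snhg17, Snhg20 and Zfas1 had neither. The E-box CACGTG, looked for anywhere in the longer window, was in none of the members' windows and in 7.15% of all of them. A match is a run of letters and not a measured site of initiation.

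The snoRNAs of the hosts were themselves hardly counted. GENCODE M21 (GRCm38) places 9 snoRNAs within Gas5 (chr1:161034422-161038539, plus strand), 8 within Snhg1 (chr19:8723475-8726443, plus strand), 4 within Snhg12 (chr4:132308623-132311024, plus strand), 1 within Snhg8 (chr3:123507552-123508404, minus strand) and 1 within Snhg6 (chr1:9941959-9944118, minus strand). In Gas5, Snhg1, Snhg8 and Snhg12 these snoRNAs also lie in exons of annotated transcripts that keep an intron, so a read there belongs to more than 1 gene, and 0 reads were counted on their snoRNA entries. The bases of exon shared with other genes were 17.8% of Gas5, 20.9% of Snhg1, 11.1% of Snhg6, 15.2% of Snhg8 and 19.6% of Snhg12. Only Snord87, which lies wholly in an intron of Snhg6 at chr1:9942463-9942549, had reads of its own. It is a box C/D snoRNA, and the capitals in its sequence mark the C box (TGATGA) and the D box (CTGA) that bind its proteins.
Snord87: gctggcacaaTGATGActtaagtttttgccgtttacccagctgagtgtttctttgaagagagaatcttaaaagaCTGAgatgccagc
Snord87 had 29 reads over the 3 UNX libraries, 8 over the CO-CM libraries and 8 over the PH-CM libraries, too few to pass the filter. The table of counts therefore describes the host RNAs and not the snoRNAs made from them.

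Per base of exon, Malat1 was by far the most abundant of the 8 RNAs and H19 the least. In UNX the deposited RPKM was 62.7 ± 2.66 (SD, n = 3) for Malat1, 16.2 ± 1.74 for Neat1, 12.0 ± 0.614 for Gas5, 8.05 ± 0.437 for Snhg8, 7.89 ± 1.12 for Snhg6, 3.66 ± 0.593 for Snhg12, 3.37 ± 0.121 for Snhg1 and 0.785 ± 0.238 for H19. In this order the libraries of Snhg8 and Snhg6 overlapped, as did those of Snhg12 and Snhg1, and every other pair of neighbours was apart. Malat1 RPKM was 93.8 ± 6.51 in CO-CM and 138.6 ± 14.1 in PH-CM. The order of the 8 RPKM means was the same in CO-CM and PH-CM. In CO-CM no neighbours overlapped. In PH-CM Neat1 (10.3 ± 1.79) and Gas5 (8.46 ± 0.584) overlapped, and so did Snhg6 (3.07 ± 0.258) and Snhg12 (2.60 ± 0.286). The gene lengths behind these RPKM values equalled the GENCODE M21 exon lengths for 7 of the 8 genes; for Snhg12 the RPKM implied 1626 bases against 2402 in M21, so its RPKM compares groups more safely than it compares genes.

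In PH-CM 7 of the 8 RNAs differed from UNX at a false discovery rate (FDR) of at most 0.05 and a fold of at least 1.2 in edgeR's quasi-likelihood test: Malat1 rose, the 5 snoRNA hosts and Neat1 fell, and H19 did not pass. Of all 11950 genes tested 63.0% were called in this comparison, 31.3% as higher and 31.7% as lower, and the libraries of the groups did not overlap for 7 of the 8 RNAs and 77.7% of all genes. In CO-CM 5 of the 8 differed from UNX, Malat1 being higher and Gas5, Snhg1, Snhg6 and Snhg8 lower, where 57.0% of all genes tested were called, 28.0% as higher and 28.9% as lower; the groups did not overlap for those 5 RNAs and for 72.0% of all genes. PH-CM differed from CO-CM in 3 of the 8, with Malat1 higher and Snhg6 and Neat1 lower, against 27.1% of all genes tested, 12.2% as higher and 15.0% as lower; here the groups did not overlap for Gas5, Snhg6, Neat1 and Malat1, and for 50.2% of all genes. All 8 RNAs passed the filter on low counts. With the share called among all genes this large, the number of RNAs called says little by itself. The results lie in which RNA moved, by how much and in which medium. The comparisons with UNX share the UNX libraries. The median log2 fold change of the 8 was -0.44 in PH-CM against UNX and -0.30 in CO-CM against UNX, where the medians of all genes tested were 0.0072 and 0.00024. Fewer cells with an RNA and less of it in each cell cannot be told apart in these bulk libraries.

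**Figure D1:**
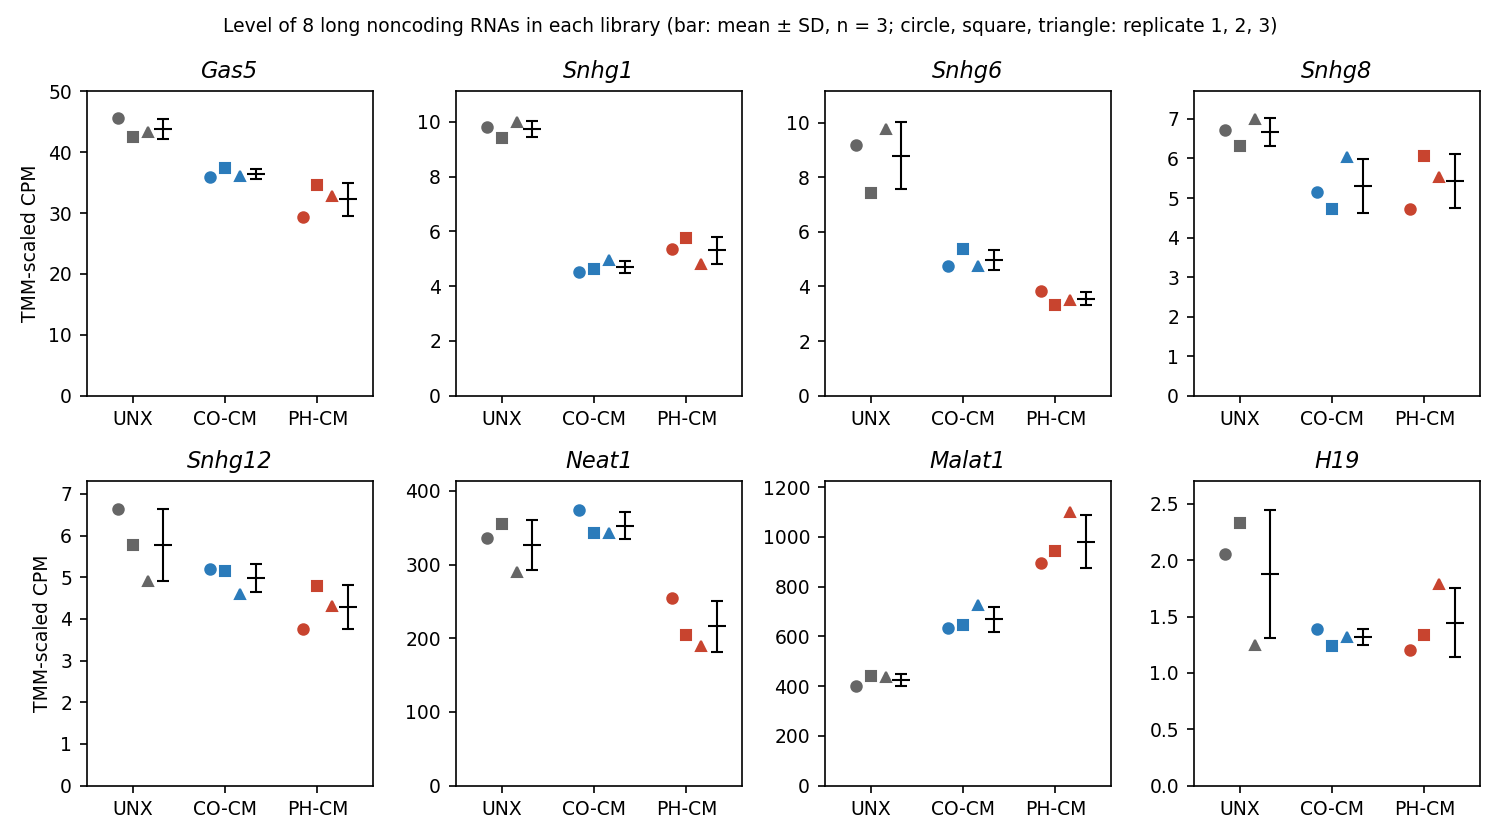
Level of each of the 8 RNAs in each library, in TMM-scaled CPM (linear axes from 0), with circles, squares and triangles for replicates 1, 2 and 3 and bars for the mean ± SD of 3 libraries. Malat1 stepped up from UNX (highest library 443 CPM) to CO-CM (lowest 635) to PH-CM (lowest 895), while Gas5 and Snhg6 stepped down in the same order of groups.

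Gas5, with the most reads of the hosts, fell in both media. Its CPM, the reads on the gene divided by the size of the library in units of 1e6 reads after TMM scaling, was 45.6, 42.4 and 43.3 in the UNX libraries, 35.9, 37.4 and 36.0 in CO-CM and 29.4, 34.6 and 32.7 in PH-CM. No library of 1 group reached into the range of another. In PH-CM against UNX the change in Gas5 was -0.44 on the log2 scale (SE 0.063, edgeR FDR 9.27e-05), a level 0.736 times that of UNX. In CO-CM the log2 fold change was -0.26 (SE 0.063, edgeR FDR 0.00345), 0.833 times UNX, which stands at the fold threshold: the call was lost with DESeq2 or its size factors (-0.26 in both), with upper-quartile factors (-0.20) and without UNX replicate 1, CO-CM replicate 1 or 3, or PH-CM replicate 2 or 3, with edgeR FDR at most 0.0148 in every alternative. PH-CM against CO-CM gave -0.18 (SE 0.063, edgeR FDR 0.0481, from 0.0197 to 0.195 over the alternatives), under the fold threshold and so not called. The protein-coding gene Zbtb37 starts on the opposite strand of the Gas5 locus and overlaps it without sharing exon bases. Its CPM was 6.91 ± 0.610 in UNX, 12.8 ± 1.65 in CO-CM and 12.1 ± 0.792 in PH-CM, higher in CO-CM (log2 fold change 0.89, edgeR FDR 3.67e-05) and in PH-CM (0.81, edgeR FDR 5.79e-05), and so moved against Gas5 in both media.

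Snhg1 fell in both media to near 0.5 of its UNX level. Its CPM was 9.83, 9.41 and 9.99 in UNX, 4.52, 4.61 and 4.96 in CO-CM and 5.37, 5.75 and 4.80 in PH-CM. All 6 libraries with conditioned medium lay far below the UNX libraries, and the ranges of the 2 media overlapped. The log2 fold change was -1.05 in CO-CM (SE 0.091, edgeR FDR 3.09e-06) and -0.88 in PH-CM (SE 0.091, edgeR FDR 8.44e-06), and no alternative took either call away at this fold threshold. PH-CM against CO-CM gave 0.18 (SE 0.093, edgeR FDR 0.168), which did not pass. Slc3a2, which encodes the heavy chain of amino acid transporters and starts 105 bases from Snhg1 on the other strand, had 454 ± 47.4 CPM in UNX, 453 ± 40.2 in CO-CM and 615 ± 22.0 in PH-CM. Slc3a2 was higher in PH-CM than in UNX (log2 fold change 0.44, edgeR FDR 0.000676) and did not pass in CO-CM (-0.0044, edgeR FDR 0.966), so it did not follow Snhg1 in either medium.

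Snhg6 had the largest decrease of the 8 RNAs in PH-CM and was the host that fell furthest between the media. Its CPM was 9.18, 7.42 and 9.77 in UNX, 4.75, 5.37 and 4.75 in CO-CM and 3.82, 3.33 and 3.51 in PH-CM. The 3 groups did not overlap. The log2 fold change was -1.30 in PH-CM against UNX (SE 0.122, edgeR FDR 3.76e-06), a level 0.405 times that of UNX, and -0.83 in CO-CM against UNX (SE 0.118, edgeR FDR 0.000116). PH-CM was lower than CO-CM by -0.48 (SE 0.123, edgeR FDR 0.0116, from 0.0021 to 0.0471 over the alternatives). The group totals behind these values were 1994 reads in UNX, 1022 in CO-CM and 686 in PH-CM. Mcmdc2, on the opposite strand, shares 127 exon bases with Snhg6 and had 92 reads in all 9 libraries together.

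Snhg8 and Snhg12 changed by less than Snhg1 and Snhg6, and their calls rested on single libraries. Snhg8 CPM was 6.71, 6.31 and 7.01 in UNX, 5.15, 4.71 and 6.04 in CO-CM and 4.72, 6.07 and 5.52 in PH-CM. Every UNX library lay above every library with conditioned medium, though the highest of the latter, at 6.07, came close to the lowest UNX library at 6.31. Snhg8 was lower in CO-CM (log2 fold change -0.33, SE 0.122, edgeR FDR 0.0325, from 0.0124 to 0.119 over the alternatives) and in PH-CM (-0.30, SE 0.123, edgeR FDR 0.0475, from 0.0206 to 0.171). Its call in PH-CM was lost with upper-quartile factors (edgeR FDR 0.0721) and without UNX replicate 1 (0.0781) or 3 (0.119), CO-CM replicate 1 (0.0557), or PH-CM replicate 1 (0.171) or 3 (0.089). Its call in CO-CM was lost with upper-quartile factors (edgeR FDR 0.0787) and without UNX replicate 1 (0.0549) or 3 (0.0845) or CO-CM replicate 1 (0.0788) or 2 (0.119). Between the media Snhg8 differed by 0.03 (SE 0.124, edgeR FDR 0.851).

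Snhg12 CPM was 6.64, 5.78 and 4.91 in UNX, 5.21, 5.15 and 4.60 in CO-CM and 3.75, 4.80 and 4.30 in PH-CM. UNX and PH-CM were apart by the small gap from 4.91 to 4.80, and CO-CM overlapped both. Snhg12 fell in PH-CM (log2 fold change -0.43, SE 0.135, edgeR FDR 0.0144, from 0.00294 to 0.0578 over the alternatives), and this call was lost without UNX replicate 1 (0.052) or PH-CM replicate 1 (0.0578). CO-CM against UNX gave -0.21 (SE 0.134, edgeR FDR 0.184) and PH-CM against CO-CM gave -0.22 (SE 0.136, edgeR FDR 0.235), neither of which passed. Trnau1ap, the gene beside Snhg12 on the opposite strand, had 20.1 ± 0.828 CPM in UNX, 15.4 ± 0.889 in CO-CM and 16.0 ± 1.62 in PH-CM and was lower in PH-CM (log2 fold change -0.32, edgeR FDR 0.00403) and in CO-CM (-0.38, edgeR FDR 0.00165).

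The hosts thus differed in the size of their decrease, and their proportions moved. The summed CPM of the 5 hosts was 71.3 to 78.0 in UNX, 55.5 to 57.3 in CO-CM and 47.0 to 54.5 in PH-CM, the 3 ranges being apart. Gas5 RPKM was 3.55 ± 0.121 times that of Snhg1 in UNX, 6.14 ± 0.361 times in CO-CM and 4.82 ± 0.539 times in PH-CM. Against Snhg6 the ratio was 1.54 ± 0.197 in UNX, 2.25 ± 0.105 in CO-CM and 2.78 ± 0.415 in PH-CM. Against Snhg12 it stayed at 3.32 ± 0.438, 3.17 ± 0.204 and 3.26 ± 0.136, within the spread of the libraries.

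**Figure D2:**
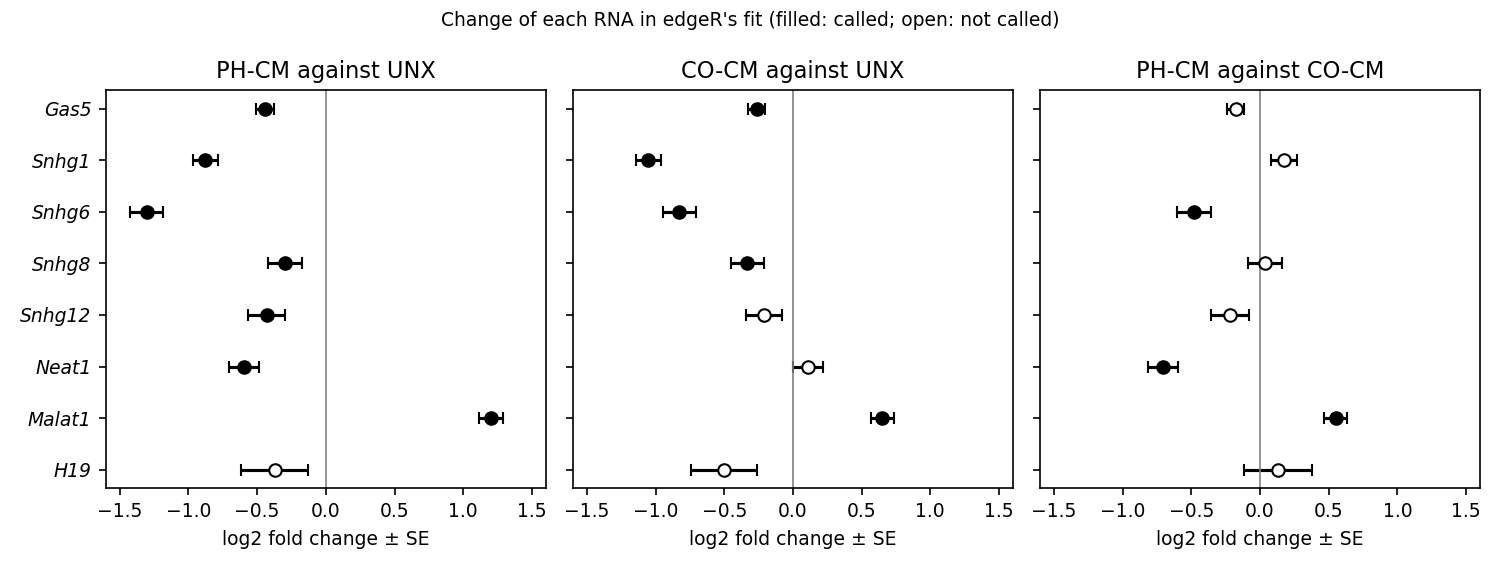
Log2 fold change ± SE of each RNA in edgeR's fit, in 3 panels for PH-CM against UNX, CO-CM against UNX and PH-CM against CO-CM; filled points were called and open points were not. Malat1 lies to the right of 0 in every panel (1.202, 0.65 and 0.55), and Neat1 lies to the left in PH-CM against UNX (-0.60) and against CO-CM (-0.71) but near 0 in CO-CM against UNX (0.11).

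Malat1 (chr19:5795690-5802672, minus strand, 6983 bases of exon) was the 1 RNA of the 8 that rose. Its CPM was 399, 443 and 437 in UNX, 635, 646 and 726 in CO-CM and 895, 945 and 1101 in PH-CM. The 3 groups were ordered with no overlap between them, and the spread was widest in PH-CM (SD 107 CPM, against 49.9 in CO-CM and 23.7 in UNX). In PH-CM against UNX Malat1 rose by 1.202 on the log2 scale (SE 0.085, edgeR FDR 4.69e-07), a level 2.30 times that of UNX. CO-CM against UNX gave 0.65 (SE 0.084, edgeR FDR 5.57e-05), a level 1.57 times that of UNX. PH-CM exceeded CO-CM by 0.55 (SE 0.084, edgeR FDR 0.000553), or 1.47 times. Ranked by reads among all genes of a library, Malat1 stood between place 302 and 345 in UNX, 149 and 172 in CO-CM and 67 and 94 in PH-CM, and it took 0.108% of the counted reads in PH-CM replicate 3 against 0.0417% in UNX replicate 1. Leaving Malat1 and Neat1 out of the library sizes changed no member's call.

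The 3′ end of Malat1 is shown because it bears on how the RNA is captured. Near its end the RNA folds a genome-encoded run of A, in capitals, into a triple helix with the U-rich stretches before it, and the bases soon after the run begin a tRNA-like RNA that is cut away. The stretch below is chr19:5795963-5796054 on the minus strand of GRCm38, from the transcript Malat1-201, whose annotated end lies 298 bases beyond the run of 12.
Malat1 end: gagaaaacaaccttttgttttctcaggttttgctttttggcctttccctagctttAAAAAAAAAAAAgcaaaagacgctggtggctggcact
The labels name an mRNA-Seq library kit, and how fully it takes up RNAs that end in this way is not given in the sources used here. The same kit was used for all 9 libraries. The gene Gm37376, annotated on the opposite strand, lies wholly in Malat1 exon, shares 453 exon bases with it and had 0 counted reads. With no strand option stated for the counts, a read there belongs to both genes, so this 0 says nothing of its level.

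Neat1 (chr19:5824708-5845478, minus strand) lies 22035 bases from Malat1 on the same strand and moved against it in PH-CM. Its CPM was 336, 355 and 289 in UNX, 374, 342 and 342 in CO-CM and 255, 204 and 189 in PH-CM. The PH-CM libraries lay below the other 6, and UNX and CO-CM overlapped. Neat1 fell in PH-CM against UNX (log2 fold change -0.60, SE 0.108, edgeR FDR 0.000516), to 0.661 times the UNX level, and against CO-CM (-0.71, SE 0.108, edgeR FDR 0.000573), to 0.612 times the CO-CM level. CO-CM against UNX gave 0.11 (SE 0.108, edgeR FDR 0.377), which did not pass. The short and the long Neat1 transcripts start at the same place, and a count per gene does not tell them apart.

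The ratio of Malat1 RPKM to Neat1 RPKM was highest in PH-CM. It was 3.53, 3.71 and 4.49 in UNX, 5.05, 5.61 and 6.31 in CO-CM and 10.4, 13.8 and 17.3 in PH-CM, with means of 3.91 ± 0.512, 5.66 ± 0.630 and 13.8 ± 3.43 (SD, n = 3). The ranges were apart. Replicate 3 had the highest ratio in each group, in UNX and PH-CM with the lowest Neat1 of its group.

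**Figure D3:**
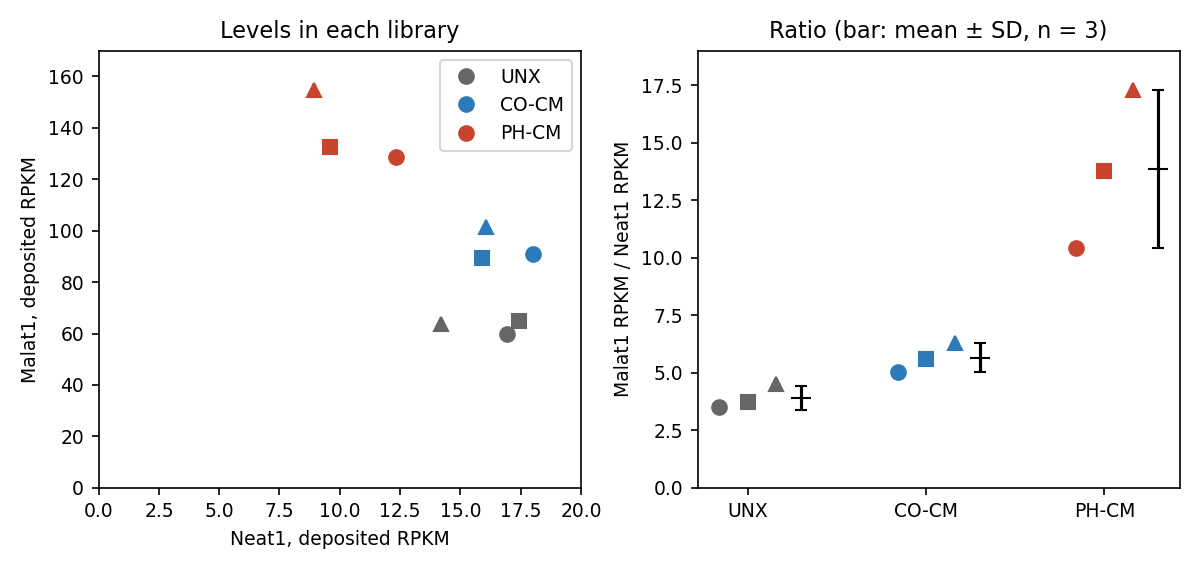
Left, deposited RPKM of Malat1 against that of Neat1 in each of the 9 libraries (linear axes from 0); right, their ratio in each library with the mean ± SD of 3 libraries. The PH-CM libraries stand alone at high Malat1 (128.8 to 154.8 RPKM) and low Neat1 (8.95 to 12.3 RPKM).

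H19 (chr7:142575529-142578143, minus strand) was near the lowest level the filter lets through and passed no test. Its CPM was 2.05, 2.33 and 1.25 in UNX, 1.39, 1.24 and 1.32 in CO-CM and 1.205, 1.34 and 1.79 in PH-CM. UNX replicate 3 lay within the range of the libraries with medium, while the other UNX libraries lay above them. The log2 fold change was -0.37 in PH-CM against UNX (SE 0.241, edgeR FDR 0.182), -0.50 in CO-CM against UNX (SE 0.241, edgeR FDR 0.0861) and 0.13 in PH-CM against CO-CM (SE 0.248, edgeR FDR 0.716). Without UNX replicate 3 H19 was called lower in both, with -0.62 in PH-CM (edgeR FDR 0.0206, from there to 0.515 over the alternatives) and -0.75 in CO-CM (edgeR FDR 0.00896, from there to 0.276), so this library decides whether H19 is called. With no filter on low counts it was called lower in CO-CM alone (-0.54, edgeR FDR 0.0477). The group totals were 416, 272 and 277 reads. Its microRNA gene Mir675 lies wholly in an exon of H19, so a read there belongs to both genes, and it had 0 counted reads. Neither this 0 nor the H19 counts say anything of miR-675, whose mature strands (RefSeq, seed in capitals) are as follows.
miR-675-5p: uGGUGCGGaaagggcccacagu
miR-675-3p: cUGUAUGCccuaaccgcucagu

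Across the 9 libraries the log2 CPM of Malat1 ran against that of Snhg6 (Pearson r = -0.97) and Gas5 (r = -0.92), and Gas5 ran with Snhg6 (r = 0.92) and Snhg12 (r = 0.88). Neat1 had r = -0.73 with Malat1 and r = 0.04 with Snhg8. These values describe 9 libraries that share 3 group means and carry no test. Among all genes tested, the profiles nearest to Malat1 were those of Atp9b, a phospholipid-transporting ATPase gene (r = 0.99), and Itgb7, the integrin β7 subunit (r = 0.99). Itgb7 CPM was 59.5 in UNX, 104 in CO-CM and 162 in PH-CM. Nearest to Neat1 were Rab3gap1 and Fam172a (both r = 0.97), whose log2 fold changes in PH-CM against UNX were only -0.15 and -0.18. Nearest to Snhg1 were the chemokine gene Ccl12 (r = 0.996) and Hspa14 (r = 0.99); Ccl12 fell much further, from 4.87 CPM in UNX to 0.019 in CO-CM and 0.083 in PH-CM. For Gas5 they were Smco4 (r = 0.98) and Faap100 (r = 0.98), for Snhg6 the genes Gm11585 and Pter (both r = 0.99), for Snhg8 Smo (r = 0.95) and Alg5 (r = 0.94), for Snhg12 Gm9493 (r = 0.92) and Naif1 (r = 0.91), and for H19 Tmem29 (r = 0.91) and Ptger3 (r = 0.89). The number of tested genes at r of 0.95 or more was 844 for Snhg6, 647 for Snhg1, 383 for Malat1, 84 for Gas5, 8 for Neat1, 1 for Snhg8 and 0 for Snhg12 and H19.

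The other snoRNA host genes did not all follow the 5 described. Of 15 listed, 14 were matched in the files (Snhg16 was not) and 9 passed the filter; 4 fell and 2 rose in PH-CM against UNX, and 4 fell and 2 rose in CO-CM against UNX, shares near the 63.0% and 57.0% called among all genes. Snhg5 went from 11.2 CPM in UNX to 4.40 in CO-CM and 3.97 in PH-CM (log2 fold change -1.49 in PH-CM), against -0.88 for Snhg1, and Snhg4 gave -1.65 in PH-CM. Snhg15 (-0.77) and Snhg17 (-0.57) fell as well, whereas Snhg20 (0.43) and Snhg10 (0.71, edgeR FDR 0.0348, from 0.00632 to 0.0863 over the alternatives) rose in PH-CM. In PH-CM against CO-CM none of the 9 was called by edgeR's quasi-likelihood test, its exact test or DESeq2, and 0 had an unadjusted p under 0.05 (1 was called without UNX replicate 2), so among the hosts of both sets Snhg6 alone was called between the media. Of the genes for core and assembly proteins of box C/D snoRNA particles, 9 of 11 were lower in PH-CM and 10 of 11 in CO-CM. In these comparisons 31.7% and 28.9% of all genes were called lower. The medians of the 11 were -1.04 and -0.87. The core protein genes Nop58 (-1.87 in PH-CM), Nop56 (-1.75) and Fbl (-1.04), which encodes the methyltransferase, fell. Proteins of other kinds of snoRNA particle were not examined. The list was not matched to the snoRNAs of each host, such as Snora24 in Snhg8 or Snora61 in Snhg12.

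Of 19 genes for factors of nonsense-mediated decay, the pathway that degrades Gas5, 6 were lower and 2 higher in PH-CM against UNX. In CO-CM against UNX 9 were lower and 2 higher. All genes were called more often than this in PH-CM (63.0%) and about as often in CO-CM (57.0%). The lower ones were mostly of the exon junction complex that marks spliced RNAs, such as Magohb (-1.20 in PH-CM) and Eif4a3 (-0.65), and the endonuclease Smg6 was higher (0.45). Upf1, the central helicase, was lower in CO-CM (-0.30, a call lost with upper-quartile factors) and gave -0.14 in PH-CM, which did not pass. None of the 19 was called in PH-CM against CO-CM by edgeR's quasi-likelihood or exact test or by DESeq2, with 2 at an unadjusted p under 0.05. Of 23 tested regulators of mTOR and growth arrest, 7 rose and 6 fell in PH-CM, and 6 rose and 7 fell in CO-CM, no more than the 63.0% and near the 57.0% of all genes called. Myc, a driver of ribosome production, fell from 91.2 CPM in UNX to 12.2 in CO-CM and 8.28 in PH-CM, while its antagonist Mxi1 rose from 32.6 to 68.0 and 148. Larp1, which binds 5′ TOP RNAs such as Gas5, fell (-0.46 in PH-CM and -0.59 in CO-CM), Mtor gave 0.03 in PH-CM with no call, and the mTOR inhibitor Ddit4 rose in PH-CM (1.72).

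The RNAs of most genes for paraspeckle proteins fell in both media, while Neat1 did not pass in CO-CM. Neat1 was lower in PH-CM than in CO-CM by the direct test above. Of 17 such genes, 11 were lower and 1 higher in PH-CM, and 14 were lower and 1 higher in CO-CM. Of all genes, 31.7% and 28.9% were called lower. The median log2 fold changes of the 17 were -0.44 and -0.45. The calls of Hnrnpm and Smarca4 in CO-CM were lost with upper-quartile factors. Pspc1 (-1.26 in PH-CM, -1.01 in CO-CM), Sfpq (-0.71, -0.71) and Nono (-0.63, -0.58), which build paraspeckles on Neat1, fell in each, and Zc3h6 was the gene that rose (1.49, 1.28). In PH-CM against CO-CM none of the 17 was called by edgeR's quasi-likelihood or exact test or by DESeq2, with 8 at an unadjusted p under 0.05 and a median of 0.0018, against -0.71 for Neat1; 1 was called without CO-CM replicate 1 or 2 or with upper-quartile factors. The RNAs of most genes for speckle proteins and for factors that process Malat1 moved against Malat1. Of 16, 11 fell in PH-CM and 11 in CO-CM, against 31.7% and 28.9% of all genes called lower, with medians of -0.55 and -0.53. The calls of Srrm1 in both media and of Srsf4 in PH-CM were lost with upper-quartile factors. The splicing factors Srsf7 (-1.49 in PH-CM), Srsf3 (-1.04) and Srsf2 (-0.98) fell, as did Mettl16 (-0.92), a methyltransferase that binds the Malat1 triple helix, and Elac2 (-0.53), which trims the tRNA-like RNA. Only the speckle scaffold Srrm2 (0.32) and Srsf5 (0.31, a call lost when library size alone was used) were higher in PH-CM, and Srrm2 was the 1 gene of the list called between the media (0.27), a call lost with upper-quartile factors; no gene of the list was called between the media without CO-CM replicate 3 or PH-CM replicate 2, and 2 were without CO-CM replicate 2.

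**Figure D4:**
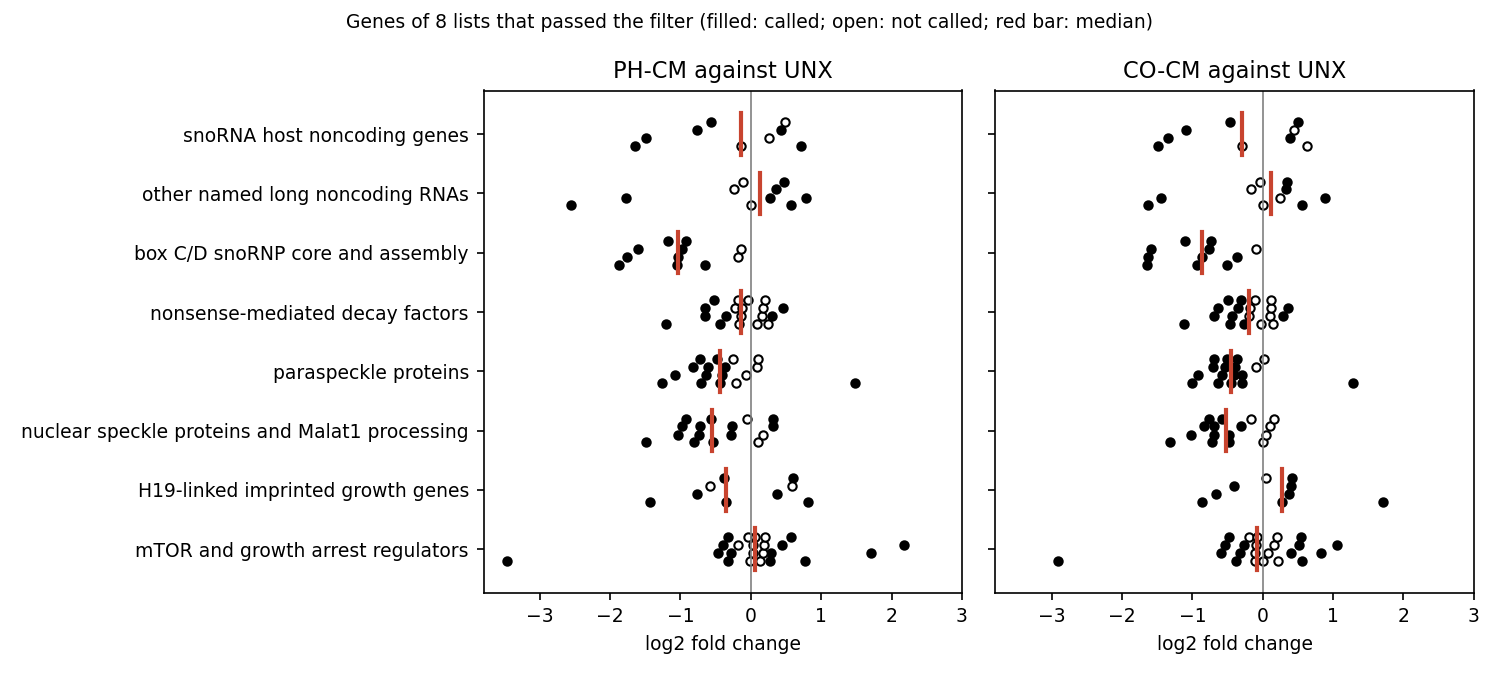
Log2 fold change of every gene that passed the filter in 8 lists of partner genes, in PH-CM against UNX (left) and CO-CM against UNX (right); filled points were called, open points were not, and the red bar is the median of the list. The box C/D snoRNP, paraspeckle and speckle lists lie mostly to the left of 0, with medians of -1.04, -0.44 and -0.55 in PH-CM.

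Other long noncoding RNAs moved in both directions. Of 20 listed, Norad was not matched and 10 passed the filter, of which 5 rose and 2 fell in PH-CM against UNX and 4 rose and 2 fell in CO-CM, near the 63.0% and 57.0% of all genes called. Leaving out 1 library gave 5 to 8 calls in PH-CM and 3 to 6 in CO-CM, the 3 without UNX replicate 3. Pvt1, the neighbour of Myc, fell by 2.56 on the log2 scale in PH-CM and Mir17hg, the host of the miR-17 cluster, by 1.78, both further than Snhg6. Firre (0.58), a nuclear RNA, and Tug1 (0.47) rose in PH-CM, though less than Malat1. Among the imprinted genes and growth regulators linked to H19, 9 of 17 passed the filter, and Igf2, the neighbour of H19, had 8 reads in all libraries and did not. In PH-CM against UNX 3 rose and 4 fell, and in CO-CM against UNX 5 rose and 3 fell. Among all genes tested, 31.3% were called higher and 31.7% lower in PH-CM, and 28.0% and 28.9% in CO-CM. Igf1r, Ctcf and Trim28 in this list are not imprinted. The cyclin-dependent kinase inhibitor gene Cdkn1c was 1.21 CPM in UNX, 3.97 in CO-CM and 0.814 in PH-CM, higher in CO-CM against UNX (1.70, edgeR FDR 0.000125) and lower in PH-CM against CO-CM (-2.28, edgeR FDR 8.67e-05), a pattern that H19 did not share.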

How the data were processed

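The authors used FastQC and AfterQC for quality and trimming, STAR for alignment (mouse GRCm38) and featureCounts 1.6.2 for counts per gene. The deposited counts are whole reads with no strand or pair option stated; 81.4% to 83.8% of the counts from 1 to 19 in a library were even numbers, so most pairs were counted as 2 reads and the read totals exceed the fragments. RPKM values, as deposited by the authors, were used for levels between genes. The authors' comparison tables (log2 fold change, mean log2 CPM, p-value and FDR) were not used. Genes above 1 CPM in at least 3 libraries (11950 of 53465) were tested with edgeR 4.0.16 (R 4.3.3): TMM, all 9 libraries in 1 quasi-likelihood fit, Benjamini-Hochberg over all genes tested, called at FDR of at most 0.05 and fold of at least 1.2. Counts limit precision by counting error as well as by the spread between libraries. DESeq2 1.42.0 and other settings were alternatives.

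The members, the partner lists and the markers were chosen with earlier results of these data known. Named genes were the members, any gene of the lists, genes overlapping or next to a member (Slc3a2 and Trnau1ap were added after their values were seen), and for each member the 2 genes with the highest Pearson r over log2 CPM with a prior count of 2. Gene models came from GENCODE M21. The 9 pairs of libraries with the same replicate number in different groups deviated together from their group means (r from 0.276 to 0.484). For pairs with different numbers r was at most 0.0423, and taking deviations from a mean of 3 libraries lowers such values. The numbers thus appear to pair the samples, though what they stand for is not stated in the sources used here.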

Additional observations from a re-analysis of the deposited data

How the results depend on the processing

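The number of RNAs called in PH-CM against UNX was 7, in CO-CM against UNX 5 and in PH-CM against CO-CM 3. A fold of at least 2 in place of 1.2 left 2, 1 and 0 of them. With no fold threshold, edgeR's quasi-likelihood test gave 4 of the 8 an unadjusted p under 0.05 in PH-CM against CO-CM. At a fold of 1.2 its exact test and DESeq2 called 3 each in that comparison. Upper-quartile factors left 3 in CO-CM against UNX. Leaving out 1 library at a time gave 5 to 7 in PH-CM against UNX, 3 to 5 in CO-CM against UNX (3 without UNX replicate 1 and 3 without CO-CM replicate 1) and 3 in PH-CM against CO-CM. With the replicate number as a block, to use this apparent pairing, the counts were 7, 5 and 3, and the block changed no member's call. Of 528 fold changes of members under the alternatives, 487 kept their direction and side of the threshold, 33 lost a call, 4 gained one and 4 turned sign. Those that turned had not been called: Snhg8 in PH-CM against CO-CM was -0.0037 with upper-quartile factors, -0.044 without CO-CM replicate 2 and -0.050 without PH-CM replicate 2 (from there to 0.14 over the libraries left out), and H19 in PH-CM against CO-CM was -0.052 without PH-CM replicate 3 (from there to 0.26). The cause was not tested. The median log2 fold change of all genes stayed within 0.1 of 0 under each scaling.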
